A study of Ganoderma lucidum with 6 samples.

Results

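The sterol genes of Ganoderma lucidum described here are 62 of the 16113 genes in the deposited table. A gene belongs to the set when it carries a GO identifier for ergosterol, sterol or steroid synthesis, lies in the KEGG maps Steroid biosynthesis or Terpenoid backbone biosynthesis, or has the word sterol in its KOG description. The annotation criteria matched 76 genes. Of these, 5 genes of the routes from acetyl-CoA to lanosterol and geranylgeranyl pyrophosphate were left out by name, and 9 others as cytochrome P450 genes or through an iron homeostasis identifier. G. lucidum is a medicinal bracket fungus that lives on wood. RNA was sequenced from wild-type mycelia at day 3, in 3 samples with NaNO3 as nitrogen salt and 3 with (NH4)2SO4. Nitrate and ammonium are thus compared together with their counter-ions, sodium and sulfate. Whether the 3 samples of a group were grown as separate cultures is not in the labels. The p-values measure the spread between the samples alone, and that spread could be technical.

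Ergosterol is the main sterol of fungal membranes. Its carbon skeleton is built from acetyl-CoA through mevalonate, isopentenyl pyrophosphate and farnesyl pyrophosphate to squalene, which is oxidised and closed to lanosterol. Lanosterol is then demethylated, methylated on the side chain, isomerised, desaturated and reduced to ergosterol, in steps that draw electrons from cytochrome P450 reductase and cytochrome b5. In Ganoderma, lanosterol is also the branch point towards the ganoderic acids, the triterpenoids for which the fungus is known.

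Of the 12 tested genes grouped here as the late route, from squalene to ergosterol, 7 were called lower in nitrate than in ammonium mycelia. The other 5 did not pass, among them the delta-14 sterol reductase GL23832-G with a log2 fold change of -0.05. With the replicate number as a block, 1 late gene was called lower, where 1.17% of all tested genes were. Genes of sterol binding, esters and transport had calls in both directions. The late group does not cover every step. It leaves out the oxidosqualene-lanosterol cyclase GL18675-G and cytochrome P450 genes, the type of the sterol C-14 demethylase. At an adjusted p under 0.05 in the fit across all genes (edgeR quasi-likelihood test, Benjamini-Hochberg), 20 of the 61 tested sterol genes differed, of which 16 fell and 4 rose. That is 26.2% falling and 6.56% rising, where over all 11993 tested genes 15.6% differed, with 8.13% falling and 7.5% rising. The C-8 sterol isomerase GL22516-G, the squalene monooxygenase GL23376-G, the sterol C5 desaturase GL26052-G and the C-4 sterol methyl oxidase GL23074-G had the largest decreases of the late route. The median log2 fold change of nitrate over ammonium was -0.84 over the 12 tested late genes, -0.36 over the 61 tested sterol genes and 0.01 over all tested genes. The members and groups were chosen with earlier results of these data known. In bulk mycelium, fewer cells of a kind and less RNA per cell cannot be told apart.

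Total gene counts were 19979528 to 24767602 in the nitrate libraries and 24059697 to 27604895 in the ammonium libraries. Levels are FPKM as deposited, which are per gene length and library size. All 61 tested sterol genes had counts above 0 in each of the 6 libraries, the lowest being 20 counts. Replicate 1 of each group stood apart from the other 2 of its group, in opposite senses on the first axis of the spread within groups, at 41.7 for nitrate replicate 1 and -40.4 for ammonium replicate 1, an axis that held 62.4% of that spread. A fit without replicate 1 of both groups was therefore added after seeing the data. In it all 20 calls were kept and 15 other sterol genes passed, but 40.6% of all tested genes were called too, 21% lower and 19.6% higher. Its values stand beside the genes whose call or direction it changes. Genes of hydrophobins and structural wall proteins, taken as markers of aerial growth, summed to 7811 to 9867 FPKM in nitrate libraries and to 6165 to 7949 in ammonium libraries. Of 19 tested such genes, 4 were higher and 2 lower, where 7.5% and 8.13% of all tested genes were. The 70 genes with the meiosis identifier summed to 1846 to 2307 FPKM in nitrate libraries and to 2310 to 2785 in ammonium libraries, with 4 higher and 7 lower, or 15.7% called against 15.6% of all tested genes. Their part in the results was not tested.

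Squalene monooxygenase inserts the oxygen that makes squalene ready for ring closure. Its gene, GL23376-G on scaffold 26 at 497635 to 499356, stood at 95.1, 181 and 101 FPKM in nitrate and at 285, 393 and 398 FPKM in ammonium. All nitrate libraries lay below all ammonium libraries, with nitrate replicate 2 the highest of its group. The gene fell by 1.54 ± 0.29 (SE) on the log2 scale (n = 3 and 3, adjusted p = 0.0133, edgeR). Without nitrate replicate 3, ammonium replicate 2 or ammonium replicate 3 the adjusted p was 0.0533 to 0.0596 by edgeR.

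C-4 demethylation of the sterol ring is carried out by an oxidase, a dehydrogenase and a ketoreductase in turn. The C-4 sterol methyl oxidase GL23074-G, the most abundant late gene, had 300, 358 and 269 FPKM in nitrate and 596, 820 and 844 FPKM in ammonium. The groups did not overlap, and ammonium replicate 1 was the lowest of its group. It fell by 1.30 ± 0.23 (SE) on the log2 scale (adjusted p = 0.0099, edgeR) and was called in all 6 fits without 1 library. The C-3 sterol dehydrogenase GL16838-G had 64.7, 73.1 and 74.7 FPKM in nitrate and 96.3, 94.2 and 99.5 FPKM in ammonium. Although its groups did not overlap, it missed the threshold (log2 fold change -0.46 ± 0.14, SE, adjusted p = 0.064, edgeR, and 0.0189 without replicate 1 of both groups). The gene GL22481-G, with the identifier for 3-keto sterol reductase on a short model, was at 59.1, 64.6 and 58.7 FPKM in nitrate and at 77.1, 105 and 106 FPKM in ammonium (log2 fold change -0.68, adjusted p = 0.0509, edgeR). It too showed no overlap, and it passed without ammonium replicate 1 (adjusted p = 0.0167, edgeR) and without replicate 1 of both groups (adjusted p = 0.00149). GL25843-G, a predicted membrane protein of the endoplasmic reticulum with the ergosterol synthesis identifier, overlapped between groups, at 14.2, 26.4 and 20.2 FPKM in nitrate and 38, 25.6 and 28.4 FPKM in ammonium (adjusted p = 0.143, edgeR).

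The delta-14 sterol reductase, which removes the double bond left by loss of the C-14 methyl group, was the late gene with the fold change nearest to 0. Its gene GL23832-G stood at 113, 111 and 115 FPKM in nitrate and at 111, 111 and 126 FPKM in ammonium. The log2 fold change was -0.05 ± 0.16 (SE, adjusted p = 0.87, edgeR), and it was 0.01 without ammonium replicate 3. A second model with the same identifier, GL23729-G, also on scaffold 3, had 5 counts in ammonium replicate 2 and 0 counts in the other 5 libraries, so it was the one sterol gene not tested. A count of 0 allows up to 0.123, 0.121 and 0.15 counts per 1000000 in nitrate replicates 1 to 3 and up to 0.125 and 0.109 in ammonium replicates 1 and 3, by counting error only.

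Sterol 24-C-methyltransferase adds the side-chain methyl group that distinguishes ergosterol from cholesterol. GL18323-G, with that identifier, had 220, 269 and 280 FPKM in nitrate and 466, 403 and 399 FPKM in ammonium. Every nitrate library was below every ammonium library. It fell by 0.73 ± 0.17 (SE) on the log2 scale (adjusted p = 0.0241, edgeR), and without nitrate replicate 2 or 3 or ammonium replicate 2 or 3 the adjusted p was 0.0647 to 0.085.

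Sterol isomerases move the ring double bond from position C-8. The gene described as sigma receptor and C-8 sterol isomerase, GL22516-G, stood at 45.4, 70.7 and 54.8 FPKM in nitrate and at 190, 179 and 197 FPKM in ammonium. The highest nitrate library was far below the lowest ammonium library. With a log2 fold change of -1.74 ± 0.18 (SE, adjusted p = 0.00131, edgeR) it had the largest decrease of all tested sterol genes, and it was called in all 6 fits without 1 library. The other isomerase, GL16827-G, of the C-8,7 type, overlapped between groups at 11.6, 24.1 and 16.3 FPKM in nitrate and 28.2, 20.7 and 28.9 FPKM in ammonium (log2 fold change -0.60, adjusted p = 0.15, edgeR).

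Sterol C5 desaturase introduces a ring double bond of ergosterol. GL26052-G, on scaffold 8 at 1127083 to 1128662, had 119, 137 and 134 FPKM in nitrate and 330, 321 and 317 FPKM in ammonium. Replicates lay close together within each group and far apart between groups. It fell by 1.32 ± 0.16 (SE) on the log2 scale (adjusted p = 0.00239, edgeR) and was called without any single library. The last step of the route is the reduction of the side chain, for which GL21870-G carries the identifier. It stood at 116, 98.9 and 80.7 FPKM in nitrate and at 158, 203 and 206 FPKM in ammonium, with no overlap. The log2 fold change was -0.94 ± 0.23 (SE, adjusted p = 0.0323, edgeR), and without nitrate replicate 2 or 3 or ammonium replicate 2 or 3 the adjusted p was 0.0852 to 0.116.

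One more gene of the sterol reductase family, GL18636-G, has no GO identifier and its step is not annotated. Its levels were 8.4, 12 and 11.7 FPKM in nitrate and 28, 18.3 and 17.7 FPKM in ammonium. It fell by 1.00 ± 0.22 (SE) on the log2 scale (adjusted p = 0.0239, edgeR), and its adjusted p was 0.0526 to 0.0765 without nitrate replicate 2 or 3 or ammonium replicate 2 or 3. The groups did not overlap.

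**Figure D1:**
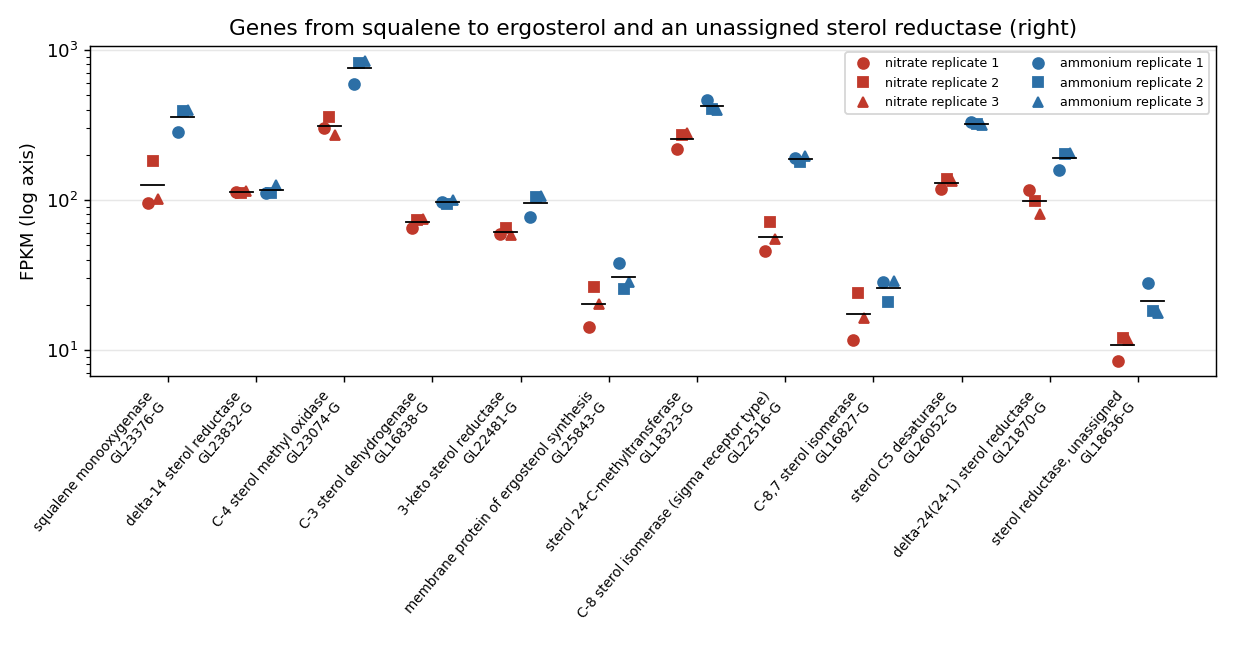
FPKM on a log axis in each library of 11 tested genes annotated between squalene and ergosterol and, at the right, the unassigned sterol reductase GL18636-G, nitrate in red and ammonium in blue, with the replicate as marker shape and the group mean as a line. For 9 of the 12 genes every nitrate library lies below every ammonium library, against 17.9% of all tested genes. GL23832-G has its groups at about the same level.

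With the unassigned reductase GL18636-G counted among the 12 tested late genes, 7 fell, 0 rose and 5 did not pass. Without it 6 of 11 fell. In the same edgeR fit, 8.13% of all tested genes fell and 7.5% rose. An unadjusted p under 0.05 was found in 11 of the 12 and in 31.9% of all tested genes (edgeR). DESeq2 called 0 higher and 9 lower, where it called 21.9% of all tested genes, 11% higher and 10.8% lower. All 12 log2 fold changes were below 0, from -1.74 to -0.05, whereas 6073 of all tested genes were above 0 and 5920 below. The summed level of the late genes was 1166, 1425 and 1217 FPKM in nitrate and 2403, 2693 and 2767 FPKM in ammonium. Each nitrate library thus carried a lower sum than each ammonium library. These genes are also abundant ones, with a median level of 119 FPKM over both groups, against 40.5 FPKM for the tested sterol genes and 12.6 FPKM for all tested genes. Without replicate 1 of both groups, 9 late genes fell and 0 rose, where 21% of all tested genes fell and 19.6% rose. In the 6 fits without 1 library, 3 to 8 late genes fell. The highest count, 8, came without ammonium replicate 1, where 8.57% of all tested genes fell. The lowest count, 3, came without nitrate replicate 3 or ammonium replicate 2 or 3, where 3.15% to 3.84% of all tested genes fell. Without nitrate replicate 2 the count was 4, and 5.14% of all tested genes fell.

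Of the 7 genes of the set between acetyl-CoA and squalene, 2 passed the test, both lower in nitrate. The set does not cover every step of this stretch. The rule leaves out GL26574-G and GL25304-G, which also fell (adjusted p = 0.00491 and 0.00294, edgeR). It also leaves out GL24088-G, which did not pass (adjusted p = 0.412, edgeR). Isopentenyl pyrophosphate isomerase, which interconverts the branched building units of the route, fell. Its gene GL29704-G had 122, 125 and 124 FPKM in nitrate and 211, 198 and 217 FPKM in ammonium, among the smallest replicate spreads of the set. The log2 fold change was -0.77 ± 0.15 (SE, adjusted p = 0.0141, edgeR), and without nitrate replicate 3 or ammonium replicate 2 or 3 the adjusted p was 0.0575 to 0.0736.

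Farnesyl pyrophosphate synthase joins these units into the precursor of squalene, of dolichol and of protein prenyl groups. The table holds a pair of genes with its identifiers, and one of them was called. GL22068-G stood at 9.04, 8.76 and 9.41 FPKM in nitrate and at 20.6, 19.9 and 21.5 FPKM in ammonium, with no overlap. It fell by 1.19 ± 0.15 (SE) on the log2 scale (adjusted p = 0.00294, edgeR) and was called in all 6 fits without 1 library. The more abundant GL25499-G had 57.4, 73.6 and 77.2 FPKM in nitrate and 65.3, 49.9 and 57 FPKM in ammonium. Its groups overlapped and it did not pass (log2 fold change 0.26 ± 0.16, SE, adjusted p = 0.295, edgeR), while without replicate 1 of both groups it was higher by 0.41 (adjusted p = 0.0402). The difference between both changes was not tested.

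Squalene synthetase, which joins 2 farnesyl units, is encoded by GL21690-G. It had 32.2, 24.7 and 18.2 FPKM in nitrate and 34, 59.2 and 65.1 FPKM in ammonium. The groups nearly touched, with ammonium replicate 1 just above nitrate replicate 1. The log2 fold change of -1.08 ± 0.33 (SE) missed the threshold (adjusted p = 0.0604, edgeR), and it passed without nitrate replicate 1 or ammonium replicate 1 (adjusted p = 0.0151 to 0.0277, edgeR). Without both of them the log2 fold change was -1.62 (adjusted p = 4.16e-05). Its model shares 670 bases with a gene on the other strand, GL21641-G, and no source used here says whether counting used strand, so part of its reads cannot be assigned for certain.

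Hydroxymethylglutaryl-CoA synthase makes the substrate of HMG-CoA reductase. Its gene GL24922-G stood at 1002, 671 and 543 FPKM in nitrate and at 454, 724 and 658 FPKM in ammonium. By the mean over both groups, 675 FPKM, it was the most abundant sterol gene of the set. In ammonium alone, GL23074-G (mean 753 FPKM) and GL19526-G (631 FPKM) stood above it (612 FPKM). Both groups spread widely and overlapped (log2 fold change 0.27 ± 0.32, SE, adjusted p = 0.606, edgeR), and the sign turned without replicate 1 of both groups (log2 fold change -0.27, adjusted p = 0.218). A pair of neighbouring models on scaffold 7, separated by 191 bases, carries the phosphomevalonate kinase annotation. The long model GL17808-G had 177, 196 and 183 FPKM in nitrate and 172, 163 and 148 FPKM in ammonium (adjusted p = 0.442, edgeR). The short model GL17809-G had 156, 62.1 and 44.3 FPKM in nitrate and 54.3, 135 and 130 FPKM in ammonium (adjusted p = 0.776, edgeR). Within each group the short model thus varied more than the long one, with replicate 1 at the opposite end in each.

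**Figure D2:**
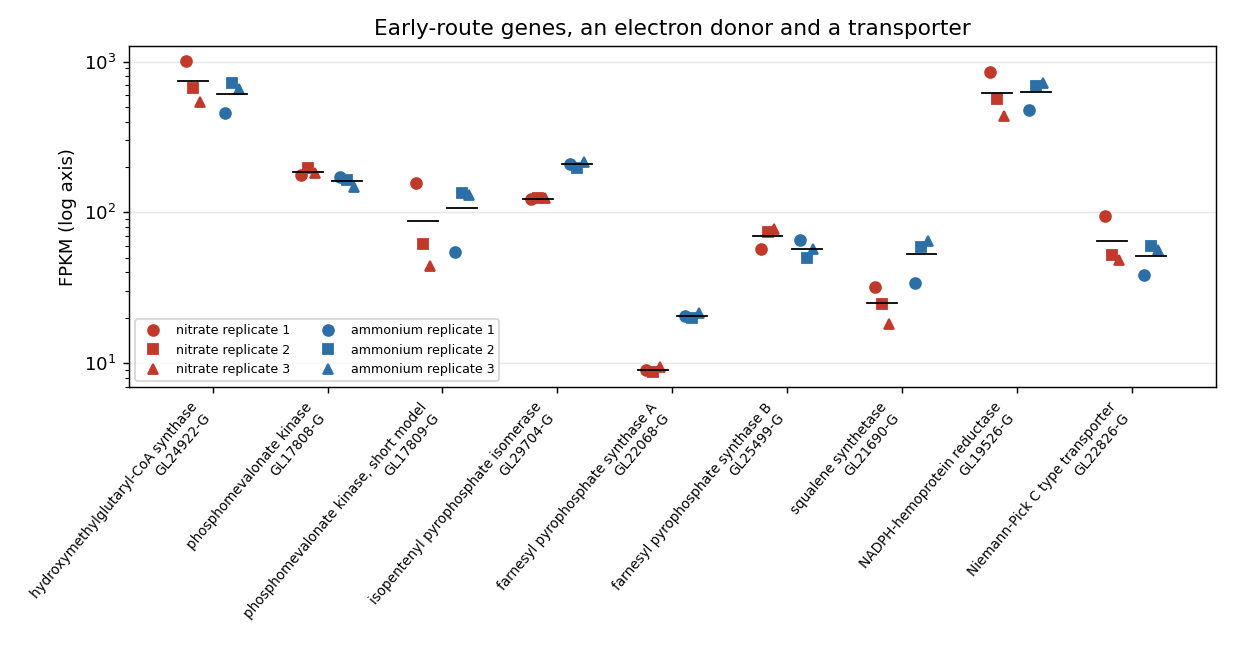
FPKM on a log axis in each library, nitrate in red and ammonium in blue, lines at group means. Shown are the 7 genes of the set from hydroxymethylglutaryl-CoA synthase to squalene synthetase, the NADPH-hemoprotein reductase and a Niemann-Pick C type transporter. GL29704-G and GL22068-G separate by salt with little spread, whereas GL24922-G, GL17809-G, GL19526-G and GL22826-G have nitrate replicate 1 highest and ammonium replicate 1 lowest in their groups.

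Of the 7 tested early genes, 2 fell, 0 rose and 5 did not pass, where 8.13% of all tested genes fell and 7.5% rose. Of these, 3 had an unadjusted p under 0.05 (edgeR), against 31.9% of all tested genes. DESeq2 called 3 lower, where it called 10.8% of all tested genes lower. In the fit without replicate 1 of both groups, 4 fell and 1 rose, where 21% of all tested genes fell and 19.6% rose. The summed level of the early genes was 1555, 1161 and 998.5 FPKM in nitrate and 1010, 1350 and 1297 FPKM in ammonium, so the groups overlapped. Replicate 1 differed from the rest of its group in several of them. In nitrate, GL24922-G stood in replicate 1 at 1.65 times the mean of the other 2 libraries, and in ammonium at 0.657 times. For GL17809-G the ratios were 2.94 in nitrate and 0.409 in ammonium. Nitrate replicate 1 was the highest and ammonium replicate 1 the lowest of its group in 14 of the 61 sterol genes, or 23%, against 21.6% of all tested genes. The opposite pattern held in 34.4% of sterol genes and 37.8% of all tested genes. Without replicate 1 of both groups, GL17809-G had a log2 fold change of -1.40 (adjusted p = 0.000187, edgeR). In that fit 4898 of 12068 tested genes were called.

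The 5 genes of the same route that the annotation rule leaves out were read in the same fit. Oxidosqualene-lanosterol cyclase GL18675-G, which closes the ring, had 24.4, 28.7 and 24.8 FPKM in nitrate and 53, 71.7 and 80.4 FPKM in ammonium. Mevalonate pyrophosphate decarboxylase GL25304-G and acetyl-CoA acetyltransferase GL26574-G also fell, by 1.37 and 1.26 on the log2 scale. Geranylgeranyl pyrophosphate synthase GL24453-G rose by 0.84 (adjusted p = 0.0133, edgeR, and 0.0527 to 0.063 without nitrate replicate 3 or ammonium replicate 2 or 3). HMG-CoA reductase GL24088-G had 1463, 891 and 769 FPKM in nitrate and 445, 916 and 851 FPKM in ammonium (adjusted p = 0.412, edgeR), with replicate 1 at the same ends of the groups as in GL24922-G. A broader list outside the rule was drawn from cytochrome b5, P450 reductase, iron homeostasis and terpene synthase annotations. Of its 42 tested genes, 3 were higher and 13 lower, or 7.14% and 31%, against 7.5% and 8.13% of all tested genes.

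Of 4 electron donors, 1 fell, 0 rose and 3 did not pass, where 8.13% of all tested genes fell. Without replicate 1 of both groups 3 of the 4 fell, as did 21% of all tested genes. NADPH-hemoprotein reductase GL19526-G, the partner of cytochrome P450 enzymes such as the sterol C-14 demethylase, stood at 858, 569 and 437 FPKM in nitrate and at 476, 694 and 724 FPKM in ammonium (log2 fold change -0.02 ± 0.32, SE, adjusted p = 0.973, edgeR). Its groups overlapped fully, and without replicate 1 of both groups its log2 fold change was -0.58 (adjusted p = 0.0188). The NADH-cytochrome b5 reductases GL31557-G and GL25478-G, which pass electrons to cytochrome b5, had no overlap between groups but missed the threshold (log2 fold changes -0.36 and -0.41, adjusted p = 0.19 and 0.114, edgeR). GL31557-G had 32.2, 31.5 and 27.5 FPKM in nitrate and 40.7, 41.7 and 34.2 FPKM in ammonium. GL25478-G had 22.7, 21.2 and 21.3 FPKM in nitrate and 27.5, 30 and 28.6 FPKM in ammonium, so both lay a little lower in nitrate. GL25478-G passed without replicate 1 of both groups (adjusted p = 0.0148) and GL31557-G did not (adjusted p = 0.0538). GL19322-G, of the adrenodoxin reductase family of mitochondria, had 11.3, 11.2 and 11.5 FPKM in nitrate and 18.6, 16.6 and 16.6 FPKM in ammonium. It fell by 0.61 ± 0.15 (SE) on the log2 scale (adjusted p = 0.0284, edgeR, and 0.0773 to 0.113 without nitrate replicate 2 or 3 or ammonium replicate 2 or 3).

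Genes annotated with steroid dehydrogenase or reductase terms form a mixed group, from families whose enzymes act on many substrates. Of 11 tested, 3 fell, 1 rose and 7 did not pass, or 27.3% and 9.09%, against 8.13% and 7.5% of all tested genes. The largest decrease was that of GL29658-G, which carries the KOG description of C-3 sterol dehydrogenases but a KEGG entry of riboflavin and porphyrin metabolism. Its levels were 151, 146 and 185 FPKM in nitrate and 439, 464 and 431 FPKM in ammonium. It fell by 1.48 ± 0.17 (SE) on the log2 scale (adjusted p = 0.00207, edgeR) and was called without any single library, with no overlap between groups.

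Among the 7 genes of the flavonol and cinnamoyl-CoA reductase family with a steroid synthesis identifier, 2 fell and 1 rose. Of all tested genes, 8.13% fell and 7.5% rose. GL25017-G had 1.26, 2.38 and 2.24 FPKM in nitrate and 5.22, 4.86 and 4.4 FPKM in ammonium, and fell by 1.31 ± 0.28 (SE) on the log2 scale (adjusted p = 0.0203, edgeR). GL18848-G had 21.5, 21.3 and 17.1 FPKM in nitrate and 36.1, 31.3 and 29 FPKM in ammonium, and fell by 0.69 ± 0.18 (SE, adjusted p = 0.0365, edgeR). GL22937-G went the other way, at 9.21, 7.97 and 12.2 FPKM in nitrate and 5.11, 4.37 and 3.03 FPKM in ammonium, and rose by 1.22 ± 0.26 (SE, adjusted p = 0.0189, edgeR), the largest increase of the set. Each of them separated the groups, at low levels in GL25017-G and GL22937-G. Without nitrate replicate 3 or ammonium replicate 2 or 3 the adjusted p was 0.0614 to 0.0724 for GL25017-G and 0.0602 to 0.0748 for GL22937-G. GL18848-G passed only in the fit without nitrate replicate 1, with 0.0609 to 0.134 in the other 5.

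GL25017-G lies in a run of 3 models of this family on scaffold 43, between GL24999-G and GL28629-G, within 177519 to 181134 on the same strand. The gap to GL24999-G is 137 bases. GL24999-G had 1.99, 4.7 and 4.44 FPKM in nitrate and 11.1, 6.11 and 5.43 FPKM in ammonium, and did not pass (adjusted p = 0.104, edgeR). GL28629-G overlapped between groups (adjusted p = 0.198, edgeR). Such close copies, or parts of one gene, may share reads, so their values are uncertain. The other members of the group without a call had log2 fold changes from -0.63 to 0.46. They are GL22235-G, GL22251-G, GL24104-G, GL25953-G and GL22548-G, the last with the identifiers of methionine adenosyltransferase. GL24104-G passed without nitrate replicate 1 (adjusted p = 0.0407, edgeR). Both GL24104-G (-0.79, adjusted p = 0.00557) and GL22548-G (0.65, adjusted p = 0.00757) passed without replicate 1 of both groups, and the log2 fold changes of GL22235-G and GL22251-G turned to 0.21 and 0.09.

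**Figure D3:**
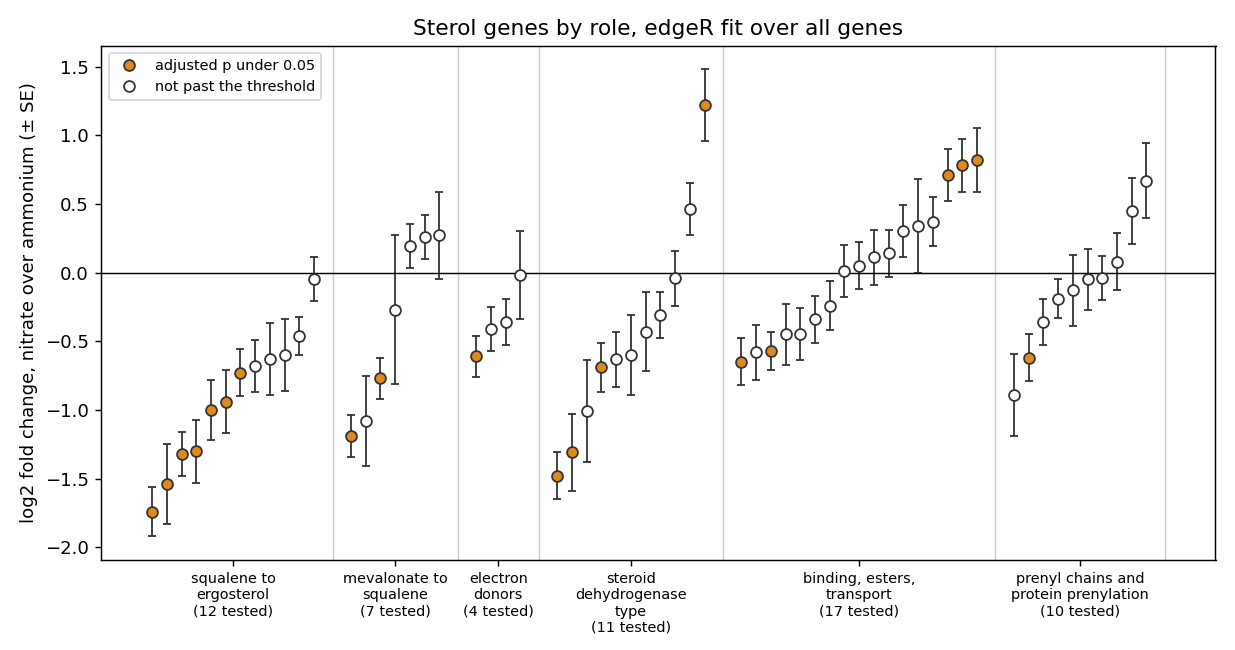
Log2 fold change of nitrate over ammonium with its SE for the 61 tested sterol genes, grouped by role and sorted within each role, with filled points for adjusted p under 0.05. All 12 late genes lie below 0, while the 17 genes of binding, esters and transport spread over both sides.

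Sterols that are not built into membranes are bound, moved or stored as esters. In this group of 17 tested genes, 3 rose, 2 fell and 12 did not pass, and the median log2 fold change was 0.05. The share that rose was 17.6%, against 7.5% of all tested genes, and the share that fell 11.8%, against 8.13%. The lecithin:cholesterol acyltransferase type gene GL25371-G, of a family that moves acyl chains onto sterols or diacylglycerol, had 34, 35.7 and 47.1 FPKM in nitrate and 28.4, 20.4 and 18.8 FPKM in ammonium. It rose by 0.78 ± 0.19 (SE) on the log2 scale (adjusted p = 0.0336, edgeR). GL30230-G, a triglyceride lipase-cholesterol esterase that frees sterols from esters, had 37.4, 40.3 and 32.1 FPKM in nitrate and 15.3, 20.1 and 26.1 FPKM in ammonium, and rose by 0.82 ± 0.23 (SE, adjusted p = 0.0492, edgeR). GL21145-G, of the family of proteases that release sterol-regulated transcription factors from membranes in mammals, had 17.6, 14.3 and 17.5 FPKM in nitrate and 8.74, 10.5 and 10.8 FPKM in ammonium (log2 fold change 0.71 ± 0.19, SE, adjusted p = 0.0424, edgeR). None of these 3 overlapped between groups. Leaving out libraries ended these calls. GL30230-G and GL21145-G passed in none of the 6 fits without 1 library (adjusted p = 0.0567 to 0.138 and 0.0697 to 0.128). For GL25371-G the adjusted p was 0.0641 to 0.128 without nitrate replicate 2 or 3 or ammonium replicate 2 or 3.

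Oxysterol-binding proteins carry sterols between membranes. Of 5 such genes, 1 fell, where 8.13% of all tested genes fell. It was GL30494-G, at 17.2, 18.3 and 17.1 FPKM in nitrate and 25.6, 24.1 and 27.6 FPKM in ammonium (log2 fold change -0.57 ± 0.14, SE, adjusted p = 0.0345, edgeR, and 0.0854 to 0.137 without nitrate replicate 2 or 3 or ammonium replicate 2 or 3). The other 4, GL21344-G, GL30097-G, GL24111-G and GL29841-G, had log2 fold changes of -0.24 to 0.37. GL21344-G (0.52, adjusted p = 0.0152) and GL24111-G (-0.43, adjusted p = 0.0453) passed without replicate 1 of both groups, and GL29841-G turned to -0.18. GL30454-G, a thiolase of the SCP2 type with a sterol carrier domain, had 17.9, 24.2 and 23 FPKM in nitrate and 37, 27.7 and 36.5 FPKM in ammonium. It fell by 0.65 ± 0.17 (SE) on the log2 scale (adjusted p = 0.0366, edgeR), a call that no fit without 1 library kept (adjusted p = 0.0623 to 0.13). The groups of both genes were separate.

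The sterol O-acyltransferase type gene GL21829-G, which stores sterols or diacylglycerol as esters, had 60.2, 54.6 and 58.8 FPKM in nitrate and 48.7, 59.5 and 48.2 FPKM in ammonium (log2 fold change 0.14, adjusted p = 0.631, edgeR, and -0.02 without replicate 1 of both groups). Niemann-Pick C type transporters export sterol from the vacuole or lysosome. Of the pair in the table, GL22826-G had 94.4, 52.5 and 48.3 FPKM in nitrate and 38.2, 59.9 and 56.7 FPKM in ammonium, and GL31156-G had 24.5, 18.6 and 18.5 FPKM in nitrate and 23.5, 29.9 and 30.3 FPKM in ammonium. Both overlapped between groups and neither passed (adjusted p = 0.537 and 0.199, edgeR). Without replicate 1 of both groups GL31156-G fell by 0.78 on the log2 scale (adjusted p = 0.00117), and the log2 fold change of GL22826-G, 0.34 with all libraries, turned to -0.30 (adjusted p = 0.138). The remaining 5 were GL31356-G, GL17059-G, GL29003-G, GL20861-G and the sterol glucosyltransferase GL29876-G, none of which passed, with log2 fold changes from -0.58 to 0.05. GL29876-G passed without replicate 1 of both groups (-0.48, adjusted p = 0.0188), and GL31356-G and GL20861-G turned to -0.05 and -0.16. The end of GL29876-G shares 5 bases with a gene on the other strand.

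Isoprenoid units also feed dolichol and ubiquinone chains and the lipid anchors of proteins. Of 10 such genes, 0 rose, 1 fell and 9 did not pass, where 8.13% of all tested genes fell. The one that fell was GL21984-G, a membrane metalloprotease that trims prenylated proteins. It had 99, 88.5 and 93.5 FPKM in nitrate and 135, 151 and 146 FPKM in ammonium, with no overlap. The log2 fold change was -0.62 ± 0.17 (SE, adjusted p = 0.043, edgeR), and the adjusted p was 0.122 to 0.154 without nitrate replicate 2 or 3 or ammonium replicate 2 or 3.

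GL24293-G carries the KOG description of sterol reductases and the identifier of isoprenylcysteine methyltransferase, which caps prenylated proteins. It stood at 78.3, 113 and 133 FPKM in nitrate and at 97, 52.1 and 53.8 FPKM in ammonium, and it overlapped through nitrate replicate 1 and ammonium replicate 1. With all libraries it did not pass (log2 fold change 0.67, adjusted p = 0.131, edgeR), without ammonium replicate 1 it did (adjusted p = 0.0288), and without replicate 1 of both groups its log2 fold change was 1.13 (adjusted p = 0.00018). The other 8 genes of the group, among them the farnesyltransferase subunits GL15842-G and GL22321-G, the cis-prenyltransferase GL24585-G, the polyprenyl synthetase GL29478-G and the prenyl protein protease GL22640-G, had log2 fold changes from -0.89 to 0.45. They also include GL31565-G, GL27133-G and GL30574-G. GL27133-G passed without replicate 1 of both groups (-0.39, adjusted p = 0.0483), and GL24585-G, GL22640-G and GL31565-G turned to 0.03, -0.22 and 0.31. The model of GL31565-G shares 102 bases with the ribosomal protein gene GL31416-G on the other strand.

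Nitrate and ammonium libraries were fully separate in 34 of the 61 tested sterol genes, or 55.7%, with nitrate lower in 28 and higher in 6. Over all tested genes this share was 37%, with nitrate lower in 17.9% and higher in 19.1%. All 20 called genes were among the 34. At least a 2-fold difference beside the adjusted p was seen in 8 genes that fell and 1 that rose, against 4.7% and 4.44% of all tested genes. The calls of GL22516-G, GL26052-G, GL23074-G, GL29658-G and GL22068-G were kept in all 6 fits without 1 library, and the other 15 were lost in at least 1 of them. By the whole set, 5 to 17 genes fell and 0 to 3 rose in these fits, in which 3.15% to 8.57% of all tested genes fell and 2.25% to 7.53% rose.

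**Figure D4:**
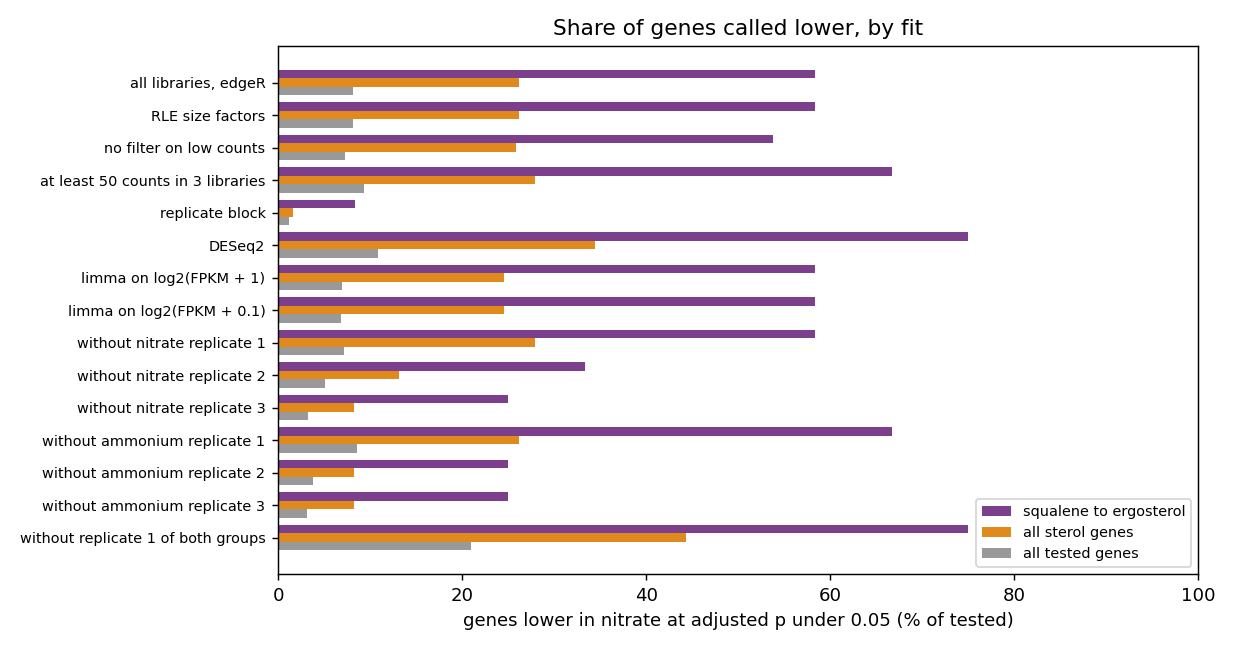
Share of genes lower in nitrate at adjusted p under 0.05, in percent of the genes tested, in each fit. The groups are the late genes from squalene to ergosterol including GL18636-G, all sterol genes and all tested genes. The late genes tested were 12, and 13 in the fit without a filter on low counts, where GL23729-G enters. The shares of all 3 groups drop together without nitrate replicate 2 or 3 or ammonium replicate 2 or 3 and with the replicate block, and in each fit the late genes have the highest share.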

How the data were processed

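The authors deposited 1 table with raw read counts per gene, TPM and FPKM for 6 libraries, per the file headers. TPM values, which the authors also computed, were not used. Aligner, counting tool, strand setting and genome build are stated in no source used here. Positions are on scaffolds as deposited. GO identifiers come without names, so their names are general knowledge, and role groups were set by hand from the GO, KEGG and KOG columns. The members, groups and lists were chosen with earlier results of these data known.

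Counts were tested with edgeR 4.0.16 (R 4.3.3): quasi-likelihood, TMM factors, filterByExpr, robust estimates, all 6 libraries, no block, Benjamini-Hochberg over 11993 tested genes, threshold 0.05. SE was derived from the F statistic. Values in every library are given for called genes and for annotated steps from squalene to ergosterol, and further genes were picked with their values known. The settings changed in turn were RLE factors, no filter or a minimum of 50 counts in any 3 libraries, DESeq2 1.42.0, limma 3.58.1 on log2(FPKM + 1) and log2(FPKM + 0.1) for genes of at least 1 FPKM in 3 libraries, a block for the replicate number, fits lacking 1 library, and a minimum of 2-fold. A count of 3 in a library was taken as the limit that a count of 0 allows.

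Replicate pairs of a group differed by far more than counting noise (chi-square per degree of freedom 36.4 to 167). On data simulated for this comparison over 11882 genes, 34% of 2-fold and 90.9% of 4-fold changes were called, with 15 calls among 11683 unchanged genes. The simulation drew each gene independently, without the shared shift of replicate 1.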

Additional observations from a re-analysis of the deposited data

How the results depend on the processing

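The edgeR fit with all libraries called 4 sterol genes higher and 16 lower, where 7.5% of all tested genes rose and 8.13% fell. RLE factors, other filters, DESeq2 and limma gave 3 to 4 higher and 15 to 21 lower. In these fits 6.4% to 11% of all tested genes rose and 6.82% to 10.8% fell. Without 1 library, 0 to 3 were higher and 5 to 17 lower, where 2.25% to 7.53% of all tested genes rose and 3.15% to 8.57% fell. Without replicate 1 of both groups, a fit added after seeing the data, 8 were higher and 27 lower. In that fit 4898 genes were called, 19.6% of all tested genes higher and 21% lower. At least 2-fold were 1 higher and 8 lower, against 4.44% and 4.7% of all tested genes. Genes with the ergosterol identifier alone gave 1 and 4 of 18, and those of the KEGG steroid map alone 1 and 3 of 7. Reading the word sterol in lower case, also added afterwards, gave 4 and 15 of 59. These narrower sets were read in the fit with all libraries, where 7.5% of all tested genes rose and 8.13% fell. With the replicate number as a block, 0 were higher and 1, GL22516-G, was lower, and 225 of all tested genes, or 1.88%, were called. The labels state no pairing by number. Deviations from the group means correlated at -0.66, -0.349 and -0.458 between same-numbered libraries, and no library correlated best with its own number. As replicate 1 stood apart in opposite senses, these correlations cannot decide whether same-numbered samples were handled together. Over all 61 tested sterol genes and 14 alternatives, 38 of 854 values changed sign, 11 of them without replicate 1 of both groups, 88 lost and 26 gained a call. Among the called and late genes, GL23832-G alone changed sign (-0.12 to 0.01 without 1 library). The cause was not tested. The biological coefficient of variation was 0.248, so 2-fold changes are often missed at this replicate spread and number of libraries.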
